A study of Mus musculus with 2 samples.

Results

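A total of 118 of 35497 named features in the expression tables were nearly silent in PBS-treated neutrophils and expressed after treatment with tumor exosomes, here called ELV as in the sample labels. They were chosen by their measured values alone, with an RPKM (reads scaled by exon length and by library depth) below 0.25 in the PBS library and of at least 1 in the ELV library. Both libraries came from neutrophils of mouse bone marrow, sorted as CD11b+ cells with high Ly-6G and with low or no Ly-6C, and kept in medium with 10 ng/ml GM-CSF, a myeloid growth factor, for 3 days. The controls received PBS, and the treated cells received 20 µg/ml exosomes collected from spheres of CT26, a mouse colon carcinoma line, which the study used as cancer stem cells. Each treatment had 1 library, neither the labels nor the methods say whether animals were pooled, and no value here has a replicate error or a test. The 118 genes made up 0.332% of the named features and 0.462% of the 25537 named features below 0.25 in PBS. The mirror rule, an RPKM of at least 1 in PBS and below 0.25 in ELV, picked 22 features, or 0.062%. Features at 0.25 RPKM or above in both libraries had a median ratio of ELV to PBS of 1.44. Such a shift raises the first count and lowers the second. With ELV divided by it, 45 of the 118 still met both limits. The mirror count was not repeated that way, so 118 against 22 is no measure of gain against loss.

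The values went against calling these genes detected only after exosome treatment. None of the 118 was listed at 0 in PBS, where they ranged from 0.02 to 0.24 RPKM with a median of 0.17. None of the 20838 named features listed at 0 in PBS reached 1 RPKM in ELV, and the highest of them was Cspg5, a brain proteoglycan, at 0.6. The genes are therefore described as genes below 0.25 RPKM in PBS and at 1 RPKM or above in ELV.

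Neutrophils are short-lived phagocytes that arrive in the blood with granules already filled, and bone marrow makes them from progenitors that also give rise to monocytes and macrophages. Common markers of macrophages are complement C1q and surface receptors such as CX3CR1, the adhesion receptor F4/80 and the sialic acid-binding receptor Siglec-1 (CD169). None of them is strictly limited to macrophages. Exosomes are small vesicles that cells release and that carry protein and RNA to other cells.

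The genomic position and the promoter of 3 members are shown first, because 2 of them were among the 3 highest genes in ELV and the other is a macrophage receptor that 2 of the searched motifs preceded. In build GRCm38, the assembly also called mm10, Sh2d1b1 lies on chromosome 1 at 170277320 to 170286769 on the plus strand, Emr4 (now Adgre4) on chromosome 17 at 55749984 to 55853662 on the plus strand, and Fcgr1 on chromosome 3 at 96282909 to 96293969 on the minus strand. All 3 genes code for protein. The sequences below are the 250 bases before the RefSeq start site, 5′ to 3′ on the strand of the gene, in GRCm38.p6. Capitals mark 3 kinds of motif, searched on both strands: AP-1 (TGANTCA), GAS, the element bound by STAT factors (TTCNNNGAA), and the core bound by PU.1, a factor of myeloid cells (AGGAAGT).
Sh2d1b1, chr1:170277068-170277317: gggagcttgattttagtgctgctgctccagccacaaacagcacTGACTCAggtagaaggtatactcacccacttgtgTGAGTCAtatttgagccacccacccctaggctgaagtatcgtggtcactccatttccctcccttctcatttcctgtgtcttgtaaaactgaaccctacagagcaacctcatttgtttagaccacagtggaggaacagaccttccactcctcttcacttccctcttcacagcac
Emr4, chr17:55749734-55749983: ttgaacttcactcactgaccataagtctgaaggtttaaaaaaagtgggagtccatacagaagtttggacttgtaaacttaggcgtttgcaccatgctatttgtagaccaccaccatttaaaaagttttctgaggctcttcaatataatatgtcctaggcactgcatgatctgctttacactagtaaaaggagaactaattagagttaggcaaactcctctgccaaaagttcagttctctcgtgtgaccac
Fcgr1, chr3:96293970-96294219: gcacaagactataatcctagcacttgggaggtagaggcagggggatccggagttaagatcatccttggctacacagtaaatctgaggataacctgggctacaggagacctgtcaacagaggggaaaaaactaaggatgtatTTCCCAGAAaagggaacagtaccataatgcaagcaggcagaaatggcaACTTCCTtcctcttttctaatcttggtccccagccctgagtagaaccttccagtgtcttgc
The Sh2d1b1 promoter held 2 AP-1 motifs, and the Fcgr1 promoter held 1 GAS motif and 1 PU.1 core on the opposite strand. No match lay in these letters of Emr4, whose PU.1 core began 41 bases past the start site. The other motifs searched had no match in these 3 sequences. They were an interferon response element (GAAANNGAA), the GC box (GGGCGG), the TATA box (TATAAA), the E box (CACGTG), the CRE (TGACGTCA), an ETS core (CGGAAG), an NRF1 half-site (GCGCANGC) and the NF-kB consensus. Over 18348 named features with a promoter in RefSeq, each 300 bases long, 7.36% held the AP-1 motif, 7.97% the GAS motif and 9.48% the PU.1 core. Fcgr1 was shown because of its matches, so they cannot be weighed against these shares. A match describes the letters only. Promoters were at hand for 87 of the 118 members, which is under 80%, so a comparison of motif or CpG content over the members was void and none is given.

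The highest members stood far above the others. Sh2d1b1, which encodes EAT-2, an adaptor that binds SLAM family receptors in natural killer cells and macrophages, had 0.24 RPKM in PBS and 26.17 in ELV, a ratio of 109. Gm266, a predicted protein-coding gene, had 0.19 and 24.12 RPKM, a ratio of 127. Emr4, an adhesion receptor of macrophages in the same family as F4/80, had 0.11 and 20.62 RPKM, and its ratio of 187 was the largest of all members. The fourth gene, 6720489N17Rik, had 0.11 and 6.99 RPKM, and no other member passed 5 RPKM. The 3 highest genes held 27.7% of the summed ELV RPKM of the members.

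Most members were only just above the ELV limit. The median was 1.30 RPKM in ELV, the middle 50 percent lay between 1.12 and 1.76, and 94 of the 118 were below 2. Named features at 1 RPKM or above in ELV, 8863 in all, had a median of 10.01. All members together amounted to 255.9 RPKM in ELV and 19.38 in PBS, and they made up 0.0738% of the summed RPKM of the ELV table. The ratio of ELV to PBS ran from 4.43 to 187 with a median of 7.97. It was at least 10 in 46 members and at least 20 in 21. The rule fixes that every ratio exceeds 4, so these ratios describe the members and support nothing further.

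**Figure D1:**
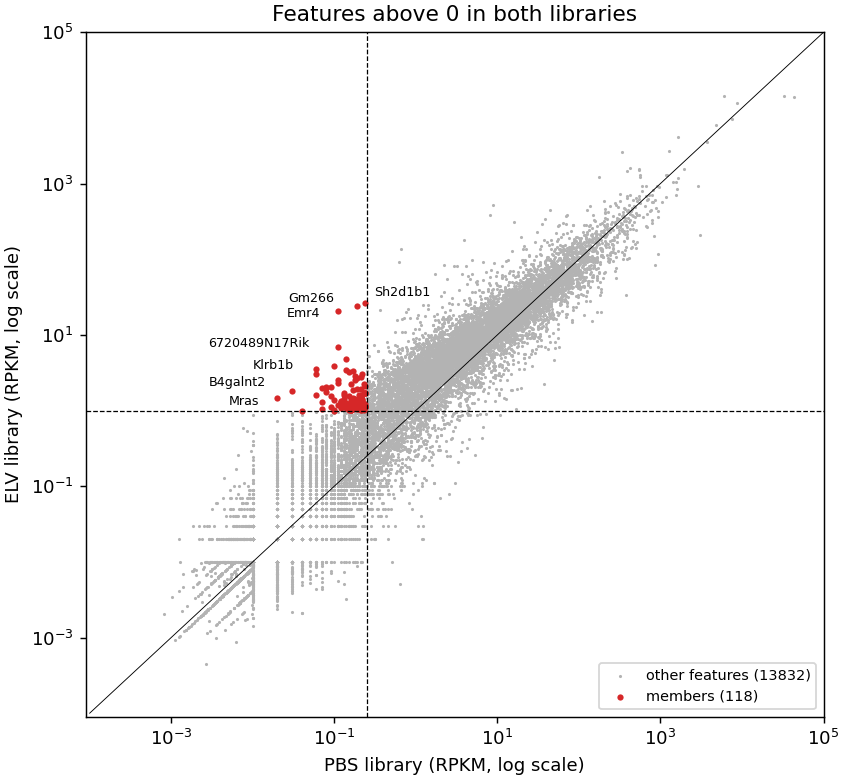
RPKM in the ELV library (y axis) against RPKM in the PBS library (x axis), both on log scales, for the 13950 named features above 0 in both libraries. Each point is 1 feature, red points are the 118 members, dashed lines are the limits of 0.25 and 1 RPKM, and the solid line marks equal values. Most members crowd into the corner next to both limits, and Sh2d1b1, Gm266 and Emr4 stand above 20 RPKM.

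Features with a low PBS value did not in general have a higher ELV value. Among the 4699 named features above 0 and below 0.25 RPKM in PBS, the median ratio was 1.0 and 47.4% were higher in ELV than in PBS. Features that began closer to the limit were more often members. At 0.2 to below 0.25 RPKM in PBS, 40 of 315 features were members (12.7%), and at 0.05 to below 0.1 they were 12 of 858 (1.4%). Only 3 of 2655 features below 0.05 RPKM were members, namely Mras, B4galnt2 and Oit3. The median ratio of these 2655 features was 0.834, and it was 1.17 at 0.05 to below 0.1 RPKM in PBS. It was 1.3 at 0.1 to below 0.15, 1.69 at 0.15 to below 0.2 and 1.61 at 0.2 to below 0.25. Features at 0.25 RPKM or above in both libraries had a median ratio of 1.44 (0.53 on the log2 scale). Measured against that shift of the expressed features, the ratios of the members ran from 3.08 to 130, and 45 of the 118 still met both limits, 9 of them from the immune and lipid lists.

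Many genes sat close to a limit on either side. The members with the highest PBS values, 0.24 RPKM, included Sh2d1b1, Gm8817 (2.11 RPKM in ELV) and Noc3l (1.73 RPKM). Just outside, at 0.25 RPKM in PBS, were Slc32a1, the vesicular GABA transporter, with 13.09 RPKM in ELV, Cryl1 with 3.32 and Cyp4f16 with 3.08. At the ELV limit the lowest members were Oit3 and Plscr2 at 1.0 RPKM and Plekha8 at 1.01. Vwa8 and Gemin6 at 0.99 RPKM and 1600012F09Rik at 0.98 were left out. There were 64 features between 0.25 and 0.3 RPKM in PBS that met the ELV limit.

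The depth behind these values was estimated from the smallest values in each table, which correspond to single reads, and came to 65.97 M reads in the PBS library and 79.13 M in the ELV library (M, mega). Over the 117 members with a known transcript length, a PBS value rested on a median of 29.8 estimated reads (3.41 to 186) and an ELV value on 334. In 12 members the PBS value rested on fewer than 10 reads. The 95% exact Poisson interval reached 0.25 RPKM or higher in PBS for 53 members, and reached below 1 RPKM in ELV for 32. In 48 members both intervals stayed inside the rule. These intervals cover counting error only and no variation between cultures. For the 3 highest genes the 95% exact Clopper-Pearson interval of the ratio was 80.5 to 154 for Sh2d1b1, 78.0 to 231 for Gm266 and 129 to 294 for Emr4.

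By function, 25 members were grouped under immune and lipid roles, after the values were seen. The group holds receptors, adaptors, secreted or effector proteins, transcription factors and lipid-handling proteins, not all of them particular to immune cells. The median of these 25 was 1.56 RPKM in ELV and the median ratio 12.2, against 1.23 RPKM and 7.33 for the other 93 members. The same values selected the members and were known when roles were given, so this difference is a description only. The lists of genes written for immune and lipid functions, 12 of the 42 lists used, hold 859 measured genes. The list of monocyte and macrophage markers, with 5 members among 20 genes, is 1 of the 12. Of the 859 genes, 18 were members (2.1%), against 0.332% of all named features. Of all named features, 20838 were listed at 0 in PBS, and none of these reached 1 RPKM in ELV. They lower the share of 0.332%, and the lists were chosen with earlier results of these data known. The difference between the shares is therefore no measure of an excess of immune and lipid genes. The counts for single lists below stand beside the same share of 0.332%.

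Receptors formed the largest immune group, with 12 genes between 1.19 and 20.62 RPKM in ELV. Klrb1b, an inhibitory lectin-like receptor known from natural killer cells, had 0.06 RPKM in PBS and 3.57 in ELV, a ratio of 59.5 with a counting interval of 30.5 to 128. It shares 599 exon bases on the same strand with Gm44511. The markers of natural killer cells were at or near 0, with a summed RPKM over 9 genes of 0.03 in PBS and 0.569 in ELV, of which Klrb1c made up 0.51. Gzma, Eomes and Klra8 were listed at 0 in both libraries.

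Adora2b, an adenosine receptor, had 0.15 RPKM in PBS and 3.23 in ELV. Its relative Adora2a was not a member, since it already stood at 1.24 RPKM in PBS, and it reached 24.79 in ELV. Other receptors coupled to G proteins among the members were Gpr31b with 0.08 and 2.0 RPKM, the ADP receptor P2ry12 with 0.19 and 1.39, and Cmklr1, the receptor for chemerin, with 0.06 and 1.60. Gpr31b shares 960 bases at 98.5% identity with Gpr31a, which was listed at 0, and how the reads of such copies were divided is not stated. Of the 100 listed G protein-coupled receptors other than chemokine receptors, 4 were members (Adora2b, Emr4, Gpr31b and P2ry12), 41 were at 0.25 RPKM or above in PBS, and 55 were below both limits.

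The chemokine receptor Cx3cr1, which binds fractalkine and is abundant on patrolling monocytes, had 0.10 RPKM in PBS and 1.39 in ELV. It was the only member among 98 listed cytokine and chemokine receptors, of which 57 were at 0.25 RPKM or above in PBS. Among sugar-binding receptors, Clec4b1, a C-type lectin, had 0.19 and 2.69 RPKM, and Siglec1, a receptor of tissue macrophages, had 0.13 and 1.59. Relatives of Clec4b1 were above the PBS limit and differed among themselves. Clec4a1 had 8.06 RPKM in PBS and 381.47 in ELV, Clec4a3 had 8.96 and 522.89, and Clec4a4 had 1.29 and 17.65. Clec4a2 had 30.60 and 34.25 RPKM, and Clec4b2 was lower in ELV at 1.29 and 0.76.

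Fcgr1, the high-affinity receptor for IgG, had 0.20 RPKM in PBS and 1.19 in ELV. Other Fc receptors were already expressed, with Fcgr3 at 448.99 RPKM in PBS and 145.78 in ELV and Fcgr4 at 33.33 and 91.48. Cd300e, an activating receptor of monocytes, had 0.17 and 1.20 RPKM. In the list of Fc and paired myeloid receptors, 3 of 65 genes were members and 50 were at 0.25 RPKM or above in PBS. Ceacam19, which belongs to the carcinoembryonic antigen family, had 0.11 and 2.54 RPKM. Receptors of the SLAM family, which the adaptor Sh2d1b1 serves, were higher or lower in ELV. Ly9 had 1.57 and 6.32 RPKM, Slamf7 0.56 and 1.19, Cd244 1.03 and 1.12, Slamf6 1.76 and 1.47, Slamf1 0.60 and 0.32, and Cd84 113.96 and 43.06. Cd48, the ligand of Cd244, had 3.22 and 80.93. The close copy Sh2d1b2 was listed at 0 in both.

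**Figure D2:**
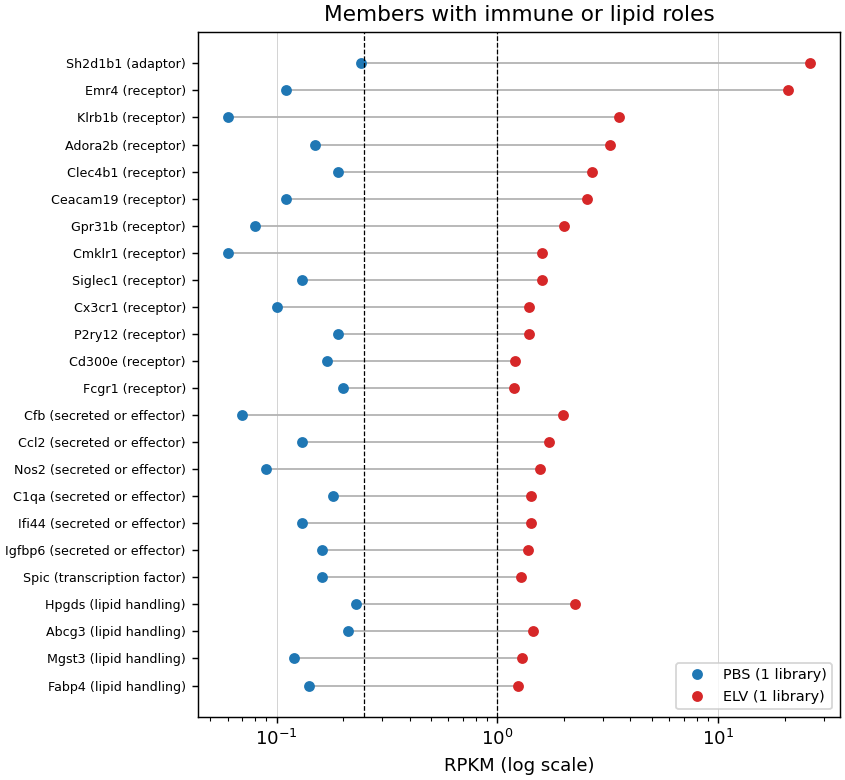
RPKM (x axis, log scale) of 24 members with immune or lipid roles, ordered by role and by ELV value, with blue points for the PBS library and red points for the ELV library. Dashed lines mark 0.25 and 1 RPKM. All 24 red points lie between 1.19 and 26.17 RPKM, and Sh2d1b1 and Emr4 stand apart from the rest.

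Among secreted and effector proteins, Cfb, complement factor B of the alternative pathway, was highest in ELV with 1.99 RPKM against 0.07 in PBS, a ratio of 28.4. Its exons share 2246 bases with the overlapping gene model Gm20547. C1qa, a chain of C1q, had 0.18 and 1.42 RPKM. The ratio was 7.89 for C1qa. The other C1q chains had ratios of 7.67 and 14.04 and missed the rule by their PBS values, with C1qb at 0.30 and 2.30 RPKM and C1qc at 0.27 and 3.79. Of 73 listed complement and coagulation genes, 2 were members and 30 were at 0.25 RPKM or above in PBS, among them C3 at 137.25 and Cfp (properdin) at 43.32.

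Ccl2, a chemokine that attracts monocytes, had 0.13 RPKM in PBS and 1.72 in ELV, on about 9.4 and 149 reads. It was the only member among 37 listed chemokines. Its neighbours in the cluster stayed lower, with Ccl7 at 0.02 and 0.43 RPKM and Ccl12 listed at 0 in both. No cytokine or growth factor out of 91 was a member, which at the share of 0.332% over all named features is no result about them, 35 of them being at 0.25 RPKM or above in PBS and 56 below both limits.

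Nos2, the inducible nitric oxide synthase, which uses arginine, had 0.09 RPKM in PBS and 1.56 in ELV, a ratio of 17.3. Ass1, argininosuccinate synthase, which starts the remaking of arginine from citrulline, had 0.22 and 3.07. Ass1 shares 1240 bases at 99.5% identity with the pseudogene Gm5424, which was listed at 0. Asl, the next enzyme of that route, was expressed in both libraries at 6.01 and 7.09 RPKM, and Arg1, which splits arginine instead, stood at 0.02 and 0.13.

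Ifi44, a gene induced by interferon, had 0.13 RPKM in PBS and 1.42 in ELV. It was the only member of 104 interferon-stimulated genes, 77 of which were at 0.25 RPKM or above in PBS. Its close relative H28 missed the ELV limit at 0.06 and 0.97 RPKM. Igfbp6, which binds insulin-like growth factors, had 0.16 and 1.38.

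Of the 104 listed myeloid transcription factors, 81 were at 0.25 RPKM or above in PBS and 2 were members. Spic, a relative of PU.1 needed for red pulp macrophages, had 0.16 RPKM in PBS and 1.28 in ELV. Nr1h3, the oxysterol receptor LXRα, was just short of the ELV limit at 0.21 and 0.98. E2f1, a factor of cell cycle entry, had 0.24 and 1.11 RPKM and was the only member of 52 proliferation and replication genes.

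Lipid-handling members were Hpgds, the hematopoietic prostaglandin D synthase, with 0.23 and 2.25 RPKM, Abcg3, an ABC transporter, with 0.21 and 1.45, Mgst3, a microsomal glutathione transferase, with 0.12 and 1.29, and Fabp4, the fatty acid-binding protein of adipocytes and macrophages, with 0.14 and 1.24. The related Fabp5 was abundant in both libraries at 17.16 and 20.54 RPKM. Of 83 listed lipid and cholesterol genes, Hpgds and Fabp4 were members, and 31 others were below both limits.

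Markers of monocytes and macrophages were higher in ELV beside these genes. Over the list of 20 such markers, 17 were higher in ELV and 2 lower, and the summed level was 196.1 RPKM in PBS and 662.6 in ELV. The most abundant were Csf1r at 58.10 and 152.64 RPKM, Emr1 (F4/80) at 20.91 and 151.51, Apoe at 28.64 and 169.37 and Cd68 at 83.91 and 145.79. Ms4a7 had 1.02 and 16.79 RPKM. Timd4 was listed at 0 in both, Cd163 stood at 0.01 and 0.00563, and Vsig4 was lower in ELV at 0.30 and 0.08. Siglec1, C1qa, Cx3cr1 and Fcgr1 were among the 5 members in this list.

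Most neutrophil markers were lower in ELV. Over 20 of them the summed level was 86530 RPKM in PBS and 34610 in ELV, with 15 lower and 5 higher, and all 20 were at 0.25 RPKM or above in PBS. Ly6g, which was used for the sort, had 286.96 and 56.19 RPKM, and S100a9 had 43059 and 13834. In bulk RNA, fewer cells of a type and less RNA per cell cannot be told apart. The part of either marker list in the values of the members was not tested.

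**Figure D3:**
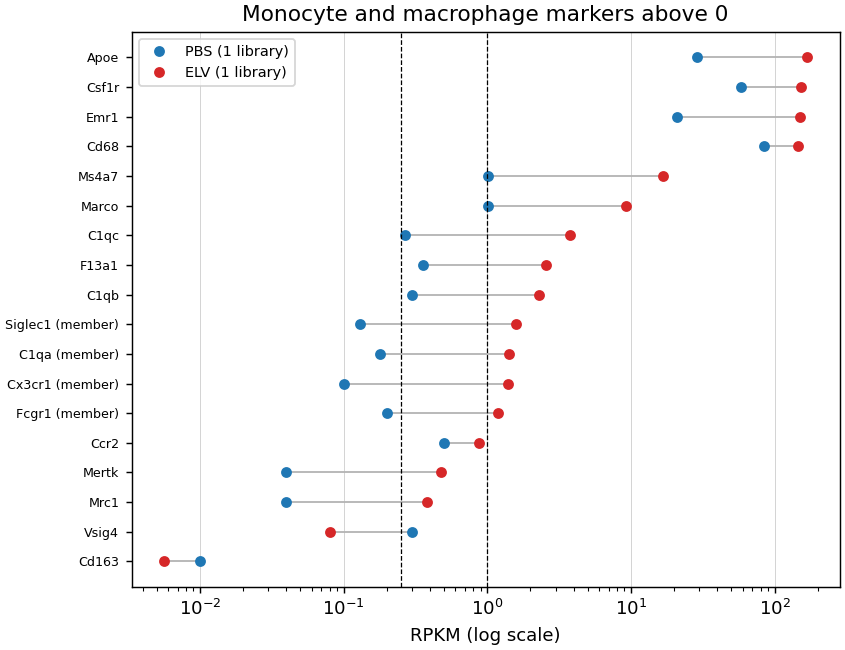
RPKM (x axis, log scale) of 18 monocyte and macrophage markers above 0 in both libraries, with blue points for PBS and red points for ELV and dashed lines at 0.25 and 1 RPKM. Red lies to the right of blue in all but Vsig4 and Cd163, and the 4 members shown lie between 1.19 and 1.59 RPKM in ELV.

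Markers of other cells gave no member, which at the share of 0.332% over all named features is no result for lists this short. Dendritic cell markers summed to 135.7 RPKM in PBS and 116.7 in ELV, with 9 of the 20 higher in ELV and 11 lower. Of these sums Cd74 made up 81.36 and 54.09, and Bst2, also listed among interferon-stimulated genes, 2.54 and 26.77. B cell markers summed to 133.5 and 83.1, eosinophil markers to 11.3 and 6.1, and erythroid markers to 2.67 and 0.685. Megakaryocyte markers summed to 43.2 and 37.4 RPKM and stem and progenitor markers to 1.88 and 3.9. In the lists that follow, 1 gene made up most of the sum. T cell markers summed to 58.9 and 8.67 RPKM, of which Cd3d made up 56.44 and 7.02, and 6 of the 12 were higher in ELV. Mast cell and basophil markers summed to 87.5 and 24.6, of which Hdc made up 84.61 and 21.13. Stromal and endothelial markers summed to 2.89 and 10.9, of which Pecam1, which leukocytes also express, made up 2.43 and 10.38. For the colon carcinoma cells that released the exosomes, 19 epithelial and carcinoma markers summed to 146.9 RPKM in PBS and 37.7 in ELV, of which Olfm4, which neutrophils also express, made up 138.43 and 28.24. Krt7 had 5.04 and 1.63 RPKM. Ascl2 was higher in ELV at 2.04 and 6.68, as was Prom1 at 0.57 and 0.82. Krt8, Krt20, Cldn4 and Tff3 were listed at 0 in both, and Epcam stood at 0.07 and 0.00613.

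Members outside the immune groups encoded surface and matrix proteins, signalling proteins and parts of the basic machinery of the cell. Of 10 surface and matrix genes, Tmc3, a transmembrane channel-like protein, was highest with 0.14 RPKM in PBS and 3.47 in ELV. An antisense gene, Gm16638, covers 3961 bases of its exons, and whether strand was used in counting is not stated. Sdc3, a heparan sulfate proteoglycan, had 0.18 and 2.87 RPKM, and Tpbg, the oncofetal antigen 5T4, had 0.11 and 2.34. Nrp2, a receptor for semaphorins and VEGF, had 0.18 and 1.23, and Fap, a serine protease of activated fibroblasts, had 0.21 and 1.23. Of 81 listed integrin, adhesion and junction genes, Nrp2 and Sdc3 were members. Lrrc8b, a subunit of volume-regulated anion channels, reached 1.84 RPKM, and Adam3, known from sperm, reached 1.77.

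Signalling and cytoskeletal genes numbered 13. Rbpms, an RNA-binding protein counted in this group, was highest with 0.14 RPKM in PBS and 4.78 in ELV, a ratio of 34.1. Rapgef5, which activates Rap GTPases, had 0.17 and 3.35. Mras, a Ras-related GTPase, had the lowest PBS value of all members at 0.02 RPKM, about 6.2 reads, and 1.46 in ELV, so that its ratio of 73.0 had a counting interval of 34.4 to 207. Ip6k3, an inositol phosphate kinase, had 0.19 and 1.93. Dclk2, Dock9, Rnf144b, Tceal8, Kifc3, Pkib and Tubb6 lay between 1.06 and 1.36 RPKM in ELV.

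Genes grouped under mitochondria, RNA and the nucleolus, and DNA and the nucleus made up 30 members, none above 1.94 RPKM in ELV. The RNA-binding Rbpms, at 4.78 RPKM in ELV, was counted under signalling and is not among them. The 12 mitochondrial genes ran from 1.02 to 1.72 RPKM in ELV with a median ratio of 7.4. They include Mrpl35, a ribosomal protein, with 0.21 and 1.62 RPKM, Mtg1, a GTPase of mitochondrial ribosome assembly, with 0.24 and 1.68, Cox10, which makes heme A for cytochrome oxidase, with 0.12 and 1.22, and Slc25a43, the only member of 376 listed solute carriers, with 0.12 and 1.32. The 10 genes of RNA and the nucleolus ran from 1.01 to 1.73 RPKM, with Noc3l, a ribosome assembly factor, highest. Polr1b and Polr1e, subunits of RNA polymerase I, had 0.15 and 1.12 RPKM and 0.24 and 1.11, and of the other subunits Polr1c had 1.79 and 5.70, Polr1d 11.64 and 17.28, and Polr1a, the largest, 17.75 and 7.07.

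The 8 genes of DNA and the nucleus lay between 1.05 and 1.94 RPKM in ELV, with ratios of 4.63 to 9.24. Mtbp, which binds MDM2, led with 0.21 and 1.94 RPKM, and 330 of its exon bases lie opposite Mrpl13, which had 1.64 and 13.47. Helq, a DNA repair helicase, had 0.22 and 1.33, and Lmnb2, a lamin, had 0.24 and 1.15. Of 447 zinc finger genes listed by symbol, 4 were members (0.895%, against 0.332% of all named features). These were Zfp811 with 0.06 and 3.07 RPKM, a ratio of 51.2, Zfp819 with 0.23 and 1.68, Zfp167 with 0.16 and 1.03, and the nucleolar Zfp593 with 0.21 and 1.02. Only 55 of the 447 were listed at 0 in PBS, against 20838 of the 35497 named features. No feature at 0 in PBS met the rule, so the shares have unlike bases and show no excess of zinc finger genes.

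The 11 genes of the endoplasmic reticulum, Golgi and vesicles ran from 1.01 to 2.27 RPKM in ELV. Sec61g, a subunit of the protein translocation channel, was highest with 0.16 and 2.27, and it has a pseudogene, Gm10177, with 420 identical bases that stood at 0 and 0.04 RPKM. B4galnt2, a glycosyltransferase, had 0.03 RPKM in PBS, only about 3.41 reads, and 1.79 in ELV. Its ratio of 59.7 had a counting interval of 22.9 to 331. Tusc3_2, one of the copies of Tusc3 in the table, had 0.24 and 1.13 RPKM, and the copy Tusc3_1 had 0.39 and 0.85.

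No role was assigned to 25 members. Besides Gm266 and 6720489N17Rik the highest were Gdpd1, with 0.10 RPKM in PBS and 3.87 in ELV, Gm13212 with 0.21 and 2.76, Gm8817, the only noncoding RNA, with 0.24 and 2.11, 0610040J01Rik with 0.09 and 2.05, and C130050O18Rik with 0.08 and 2.04. Gm13212 shares 121 identical bases with Zfp984, which had 18.64 and 20.17 RPKM. Gm6377, with 0.15 and 1.23 RPKM, lies over 229 exon bases of Sh3bgrl on the same strand, and Sh3bgrl had 2.04 and 32.86. In all, 42 of the 118 members shared exon bases or a near-identical stretch with another annotated gene, and in 11 the overlapping gene had at least 1 RPKM in ELV.

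**Figure D4:**
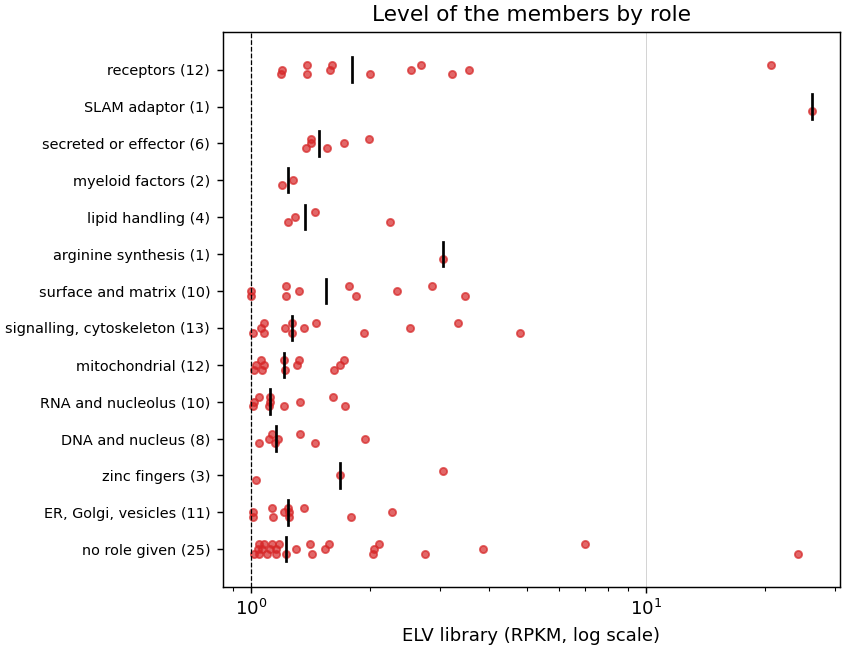
RPKM in the ELV library (x axis, log scale) of the 118 members by role, with the number of genes in parentheses. Each point is 1 gene, black bars are medians, the dashed line is the limit of 1 RPKM, and the height of a point within a row carries no value. Receptors span 1.19 to 20.62 RPKM. The groups of mitochondria, of RNA and nucleolus, and of DNA and nucleus stay below 2 RPKM, with the RNA-binding Rbpms counted under signalling.

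Other lists held no member, which at the share of 0.332% over all named features says little for lists of these sizes. None of 31 listed MHC class II and costimulation genes, 80 extracellular matrix and protease genes, 25 further T and natural killer cell genes, 282 ion channel genes, 90 histones, 108 keratins, 48 collagens or 251 detoxification genes met the rule. The 823 microRNA and small nucleolar RNA features were listed at 0 in both libraries. Of 2056 olfactory and vomeronasal receptors, 2050 were below both limits. Of the 116 members matched to RefSeq, 115 code for protein (99.1%), against 98.1% of the features above 0 and below 0.25 RPKM in PBS. These 116 were spread over 20 chromosomes, with the most on chromosomes 11 (13 genes) and 7 (10 genes), and no 2 of them lay within 100000 bases of each other.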

How the data were processed

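Sequencing reads of mRNA libraries from PBS-treated and ELV-treated neutrophils were trimmed by base quality and analysed in CLC Genomics Workbench by the authors, who deposited 1 RPKM value per feature and library. The build is mm10 per the labels. The annotation, the handling of reads with several matches and the use of strand are not given in the sources used here. Values of 0.01 and above carry 2 decimals. From these, members were selected by the rule with Python (pandas 2.3.3, scipy 1.17.1), leaving out 25 feature names that consist of digits. Ratios are of RPKM without a pseudocount. Depth was estimated as the commonest quotient of 1 read by RPKM and GENCODE transcript length among features below 0.01 RPKM, giving 65.97 M and 79.13 M reads. Estimated reads served only to describe precision, as read numbers and 95% intervals. The steps were tried on simulated reads with genes raised from well below the PBS limit to well above the ELV limit. That trial does not cover members near a limit, and it cannot show an error in the transcript lengths. Gene positions, types and promoters came from GENCODE M21 and RefSeq (99 members matched by symbol and 16 by an older symbol), and copies were sought with blastn 2.17.0 (at least 100 bases at 98% identity).

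The members, the 42 lists (13 of cell markers) and the roles were chosen with earlier results of these data known. Genes named were the 20 highest in ELV, up to 4 of each list, those nearest each limit, those listed at 0 in PBS, those within 100000 bases of another member, and the 5 largest ratios. Other members and all relatives were chosen after their values were seen. The values of 3 members are not reported here. With 1 library per group no test was made. Alternatives were other limits, median centring, a trimmed mean, TPM, digit names and pseudocounts.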

Additional observations from a re-analysis of the deposited data

How the results depend on the processing

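The number of members depended on both limits and on the scaling. With PBS below 0.1 RPKM there were 15 members (median 1.77 RPKM in ELV, 3 on the immune and lipid lists), and with PBS exactly 0 there were 0, with 0 on those lists and no median. With PBS below 0.5 there were 494 (median 1.57, 41 on the lists). With ELV of at least 0.5 RPKM there were 352 (median 0.81), of which 2 were at 0 in PBS, and with at least 2 there were 24 (median 2.97, 6 on the lists). Median centring, which divides ELV by the shift of 1.44, left 45 members and removing a trimmed mean left 43, with 9 on the lists in each. All of these were also members under the limits as used. Rescaling to TPM at the same limits, which are stricter for PBS and looser for ELV than in RPKM, gave 100 members (median 1.47, 9 on the lists, 4 at 0 in PBS), of which 12 were shared. A ratio of at least 4 with a pseudocount of 0.25, together with ELV of at least 1 RPKM, gave 568 (median 7.08, 72 on the lists), of which 51 were shared. As alternatives chosen after seeing the data, leaving out members that share bases with another gene left 76, and TPM with median centring gave 49 (4 on the lists, 2 at 0 in PBS). Keeping digit names changed nothing. With a pseudocount of 0.25 or 1, each of 33 log2 ratios examined fell below its counting interval, and with 0.01 none did. Leaving out a replicate could not be done with 1 library per group. No paired analysis was possible because each group holds 1 library and no test was made.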
